A study of Homo sapiens with 2 samples.

Results

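The genes described here are 10 genes of the cytoplasmic actin and tubulin families: the actins ACTB and ACTG1, the α-tubulins TUBA1A, TUBA1B and TUBA1C, the β-tubulins TUBB, TUBB2A, TUBB4B and TUBB6, and the γ-tubulin TUBG1. Their spans in the GENCODE 44 annotation of the hg38 genome were overlapped with the peaks of IGF2BP3 LACE-seq in OE-19 cells, and any shared base counted. This gave 21 of the 21142 peaks of replicate 1 and 17 of the 20799 peaks of replicate 2. OE-19 cells are an established human cancer line, derived from a tumor of the esophagogastric junction, and the labels name no treatment and no genetic change of the cells. In LACE-seq, RNA is crosslinked to its bound proteins with UV light, pulled down with an antibody against IGF2BP3, cut with a nuclease, and amplified linearly from the ends of the cDNA. Both libraries belong to 1 group, and no input library, IgG library or second condition was analysed here. The study calls the replicates biological, and the labels do not say how the cultures were kept apart, so the spread given below is that between 2 libraries.

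Actin polymerises into the filaments of the cell cortex, and α- and β-tubulin form the dimers from which microtubules grow, with γ-tubulin in the complexes that start new microtubules. Both families are encoded by several near-identical genes, and their abundant mRNAs have been copied back into the genome many times as processed pseudogenes, which lack introns. IGF2BP3 belongs to a family of RNA-binding proteins whose founding member was described through the zipcode, a stretch of the β-actin 3′ UTR that carries the mRNA to the edge of the cell. The family is also known for reading N6-methyladenosine (m6A).

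All 10 genes had a peak in both lists by overlap of the gene span, against 34.7% of 20046 protein-coding genes. On their own mRNA, taken as the MANE Select transcript, 9 of the 10 had bases inside peaks of both lists, against 30.6% of 19061 protein-coding mRNAs. The exception was TUBB6. Peak strength is given as the fold enrichment of the authors' peak caller, a ratio of the reads at the summit to a local background, and as the number of reads at the summit, recovered from the deposited fold and p-value. Reads at the summit of the member peaks were between 21 and 251 in replicate 1 and between 17 and 175 in replicate 2, with medians of 66 and 74, against 22 for all peaks in both lists. The median fold enrichment of the member peaks was 6.03 in replicate 1 and 6.66 in replicate 2, below the medians of 6.89 and 7.13 of all peaks. The peaks were thus high in reads and not in fold. Without an input library, a more abundant RNA and more binding per RNA cannot be told apart for any of these genes.

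**Figure D1:**
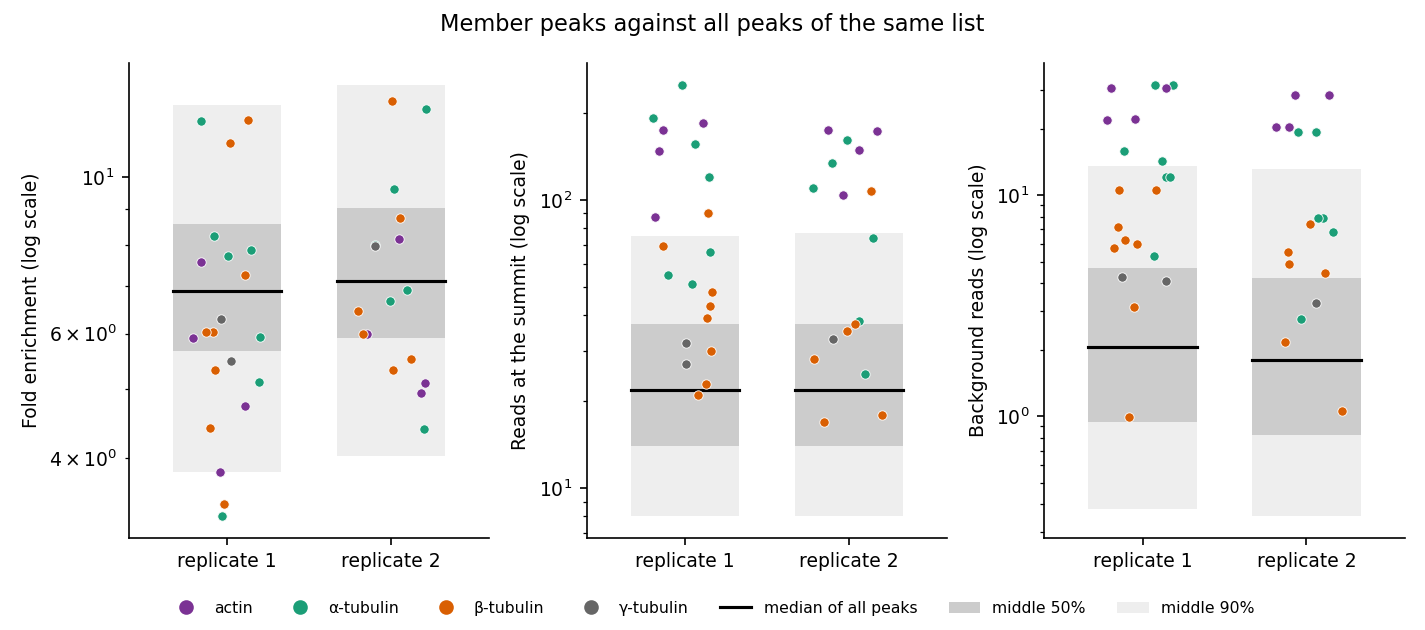
Fold enrichment, reads at the summit and background reads (log axes) of the 21 member peaks of replicate 1 and the 17 of replicate 2, 1 point per peak colored by family, with the median (line) and the middle 50% and 90% (grey) of all peaks of the same list. The points lie mostly above the grey median in reads and background, and on both sides of it in fold.

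Of the member peaks, 16 of 21 in replicate 1 (76.2%) overlapped a peak of replicate 2, and 16 of 17 in replicate 2 (94.1%) overlapped a peak of replicate 1. The shares for all peaks in protein-coding genes were 60.7% and 61.1%. With both lists cut to peaks whose summit 31-mer occurs once, the shares of the members were 50% and 72.7%. This cut also removed overlapping partners whose own summit 31-mer was repeated. The share of all peaks under the same cut is not given, so these shares cannot be set against 60.7% and 61.1%. The 16 overlapping pairs shared a median of 91.0% of their joint length. Their summits lay a median of 17.5 bp apart, with 13 of the 16 within 50 bp. Fold enrichment was higher in replicate 2 in 11 of the 16 pairs, and its SD over the replicates ran from 0.0546 to 2.32.

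ACTB, the β-actin gene on the minus strand of chromosome 7, held 2 peaks in each list. The larger one, at chr7:5527432-5528882 in replicate 1 and chr7:5527434-5528895 in replicate 2, had a fold of 7.58 with 174 reads and of 8.16 with 173 reads, or 7.87 ± 0.414 (SD, n = 2). It ran from intron 3 over exons 4 and 5 into the last exon and covered the stop codon. The second peak, over exon 2 with the start codon and part of exon 3, had a fold of 3.83 with 87 reads in replicate 1 and of 4.94 with 104 reads in replicate 2. In all, 74.4% of the 1812 nt of the mRNA lay inside peaks in replicate 1 and 77.4% in replicate 2. The bases left out were most of the 5′ UTR, of which 7.14% was covered in both lists, the end of exon 3, and the distal 3′ UTR.

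ACTG1, the γ-actin gene on chromosome 17, had the same layout. Its larger peak, at chr17:81510070-81511825 and chr17:81510172-81511818, had folds of 5.92 and 5.998 with 185 and 175 reads, or 5.96 ± 0.0546 (SD, n = 2). The smaller one had folds of 4.74 and 5.10 with 148 and 149 reads. The share of the 1919-nt mRNA inside peaks was 86.2% and 84.3%, the highest of the 10 genes in both lists. Among the 5824 mRNAs covered in both lists these shares ranked at the 99.7 percentile in each.

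The first bases after the stop codon are shown for both actins, since they hold the 5′ part of the zipcode in ACTB. The lines give the 30 nt that follow the stop codon on the mRNA strand in hg38, at chr7:5527718-5527747 (minus) for ACTB and at chr17:81510660-81510689 (minus) for ACTG1, with CGGAC and ACAC in capitals where both stand at the zipcode's spacing and CGGAC alone otherwise.
ACTB: gCGGACtatgacttagttgcgttACACcct
ACTG1: aCGGACtcagcagatgcgtagcatttgctg
Both stretches lay inside peaks in both lists. CGGAC stood at the same distance from the stop codon in both mRNAs, and ACAC followed 8 to 20 nt later only in ACTB. All 30 bases of ACTG1 and 23 of the 30 of ACTB were single-copy, which means that the 31-mer centred on the base was found nowhere else in the genome. The ACTB site lay well away from the summit. It was 626 nt downstream of it in the mRNA in replicate 1 and 615 nt in replicate 2, and 289 and 287 bp inside the 3′ edge of the peak.

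The bipartite motif, CGGAC and ACAC separated by 8 to 20 nt and read on the mRNA strand, was found in 4.64% of 19061 protein-coding mRNAs. Among the members it was found in ACTB and, in the coding sequence, in TUBB6, whose site had no peak. A site inside peaks of both lists was found in 0.357% of the mRNAs, ACTB among them. A match describes letters within a peak, which is 1451 and 1462 bp long in ACTB, and not a bound site.

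The coding summits of the larger actin peaks fell close together. They lay 503 and 514 nt downstream of the first base of the start codon in ACTB, in replicates 1 and 2, and 479 and 463 nt in ACTG1. The 61 nt around the ACTB summit of replicate 1 and the aligned bases of ACTG1 are shown to let the degree of sharing be seen, from chr7:5528549-5528609 (minus) and chr17:81511456-81511516 (minus) of hg38, with the 4 differing bases in capitals.
ACTB: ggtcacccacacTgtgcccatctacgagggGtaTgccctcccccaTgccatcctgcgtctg
ACTG1: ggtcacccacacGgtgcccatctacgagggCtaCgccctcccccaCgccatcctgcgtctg
Over the whole coding sequence the actins were 91.2% identical, and the longest identical run was 59 nt. The base at the centre of the stretch was single-copy in each. The smaller ACTB peak of replicate 2 had a further coding summit at 136 nt, where the 31-mer occurred more than once.

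The α-tubulins lie side by side on chromosome 12. TUBA1B had the most reads of any member in replicate 1, and ACTG1 in replicate 2. Its larger peak, at chr12:49127895-49129171 and chr12:49127973-49129170, had folds of 7.71 and 7.997 with 251 reads in replicate 1 and 161 in replicate 2, or 7.85 ± 0.201 (SD, n = 2). A second peak had folds of 5.92 and 6.66 with 192 and 134 reads. Its summits lay outside the exons of the mRNA, 34 and 5 nt upstream of the nearest one. The share of the mRNA inside peaks was 83.8% and 73.0%, and no base of the 5′ UTR was covered.

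TUBA1A, an α-tubulin best known from developing neurons, showed the highest fold of the α-tubulins. Its larger peak, at chr12:49185380-49186178 and chr12:49185403-49186181, had folds of 11.98 and 12.46 with 156 and 110 reads, or 12.2 ± 0.337 (SD, n = 2). The summits of this pair were 355 bp apart. The second peak, with folds of 5.13 and 4.39 and 66 and 38 reads, was weaker in both lists. Peaks covered 47.5% and 43.96% of the mRNA, none of it in either UTR.

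TUBA1C had a large coding peak at chr12:49272023-49273219 and chr12:49272001-49273217, with folds of 7.88 and 9.63 and 120 and 74 reads. Its summits, 404 and 1102 nt downstream of the first base of the start codon, were the farthest apart of all pairs, at 698 bp, although the peaks shared 98.0% of their joint length. TUBA1C was also the only member with a peak over its first exon, which covered 86.0% and 84.0% of its 5′ UTR. The summits of this peak lay 154 and 116 nt upstream of that exon, before the first base of the mRNA. Of the peak, 26.96% and 28.09% was in the mRNA. Its folds of 8.25 and 6.91, with 51 and 25 reads, are therefore values of a point outside the mRNA. Another peak, with a fold of 3.31 and 55 reads, was in the list of replicate 1 alone. TUBA1C has the longest 3′ UTR of the 10 genes, 1373 nt, and none of it was covered.

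The coding sequences of TUBA1A and TUBA1B were 97.2% identical and shared 799 of their 31-mers, and the longest identical run was 221 nt. Of the bases inside peaks, 23.0% and 18.5% were single-copy in TUBA1B, 30.6% and 31.8% in TUBA1A, and 39.6% and 34.8% in TUBA1C.

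The β-tubulins had fewer reads. TUBB held a coding peak at chr6:30723318-30724394 and chr6:30723218-30724145, with folds of 6.03 and 5.52 and 69 and 35 reads, and the summit fell on the same base in both lists. A 3′ UTR peak of TUBB, with a fold of 3.45 and 39 reads, was in replicate 1 alone. The covered share of the mRNA was 53.6% and 32.05%.

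TUBB4B held a peak near the start of its coding sequence at folds of 6.03 and 6.46 with 43 and 37 reads. Of this peak, 25.6% and 22.6% was in the mRNA, and its summit in replicate 2 lay in an intron, 11 nt upstream of the exon. Another peak lay over the stop codon at chr9:137243245-137243598 and chr9:137243307-137243634, with folds of 7.27 and 5.33 and 48 and 28 reads. The 31-mer at its summit occurred 5 times in the genome in replicate 1 and 6 times in replicate 2. Of the TUBB4B bases inside peaks, 65.0% and 53.7% were single-copy. A further coding peak, with a fold of 4.41 and 30 reads, was in replicate 1 alone. Its mRNA was covered to 47.3% and 25.4%.

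TUBB2A had a single peak per list, at chr6:3153952-3154299 and chr6:3153987-3154373. The folds were 12.02 and 8.74, the largest SD of any pair at 10.4 ± 2.32 (SD, n = 2), and rested on 23 and 17 reads. None of the bases inside this peak was single-copy in either list. TUBB2B, a neighbouring paralog that shares 959 31-mers with the TUBB2A mRNA, had no peak. The 61 nt around the TUBB2A summit of replicate 1 are shown with the aligned bases of TUBB and TUBB4B, to let the degree of sharing be seen. They come from chr6:30724052-30724112 (plus) for TUBB, chr6:3154151-3154211 (minus) for TUBB2A and chr9:137243208-137243268 (plus) for TUBB4B, with the 12 positions that differ in capitals.
TUBB: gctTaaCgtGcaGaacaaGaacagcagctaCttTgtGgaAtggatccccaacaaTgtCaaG
TUBB2A: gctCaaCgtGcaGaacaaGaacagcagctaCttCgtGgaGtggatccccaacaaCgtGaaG
TUBB4B: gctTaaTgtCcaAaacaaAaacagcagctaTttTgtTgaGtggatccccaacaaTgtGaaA
The whole stretch was inside peaks of both lists in TUBB and TUBB2A, while in TUBB4B it was inside a peak in part in replicate 1 and not at all in replicate 2. The coding sequences of TUBB2A and TUBB4B were 87.2% identical.

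TUBB6 went against its label. Its span held 2 peaks in each list, the stronger at chr18:12329160-12329941 and chr18:12329176-12329940 with folds of 11.2 and 12.8 and 90 and 107 reads. All of them lay beyond the end of the TUBB6 mRNA, inside AFG3L2, a mitochondrial protease gene on the opposite strand. The summits of the stronger pair were in the 3′ UTR of AFG3L2 and also in the last exon of a longer annotated TUBB6 transcript, and without strand these RNAs cannot be told apart. The weaker peaks of the span, with folds of 5.32 and 5.98, did not overlap each other and were in introns of TUBB6. No base of the 1879-nt TUBB6 mRNA was inside a peak in either list, although 93.3% of it was single-copy, the highest share of the 10 genes. The fold and reads of TUBB6 are therefore not values of its main mRNA, and without its peaks the counts over the members were 19 and 15.

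TUBG1, which encodes γ-tubulin, had a peak at chr17:42614060-42614365 in replicate 1 and chr17:42613418-42614368 in replicate 2, with folds of 6.29 and 7.97 and 32 and 33 reads. The peak of replicate 2 was longer, and the pair shared 32.2% of its joint length, the lowest share of the 16 pairs. A second peak, with a fold of 5.49 and 27 reads, was in replicate 1 alone. The covered share of the mRNA was 17.3% and 21.5%, close to the medians of 19.1% and 18.3% of all covered mRNAs.

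**Figure D2:**
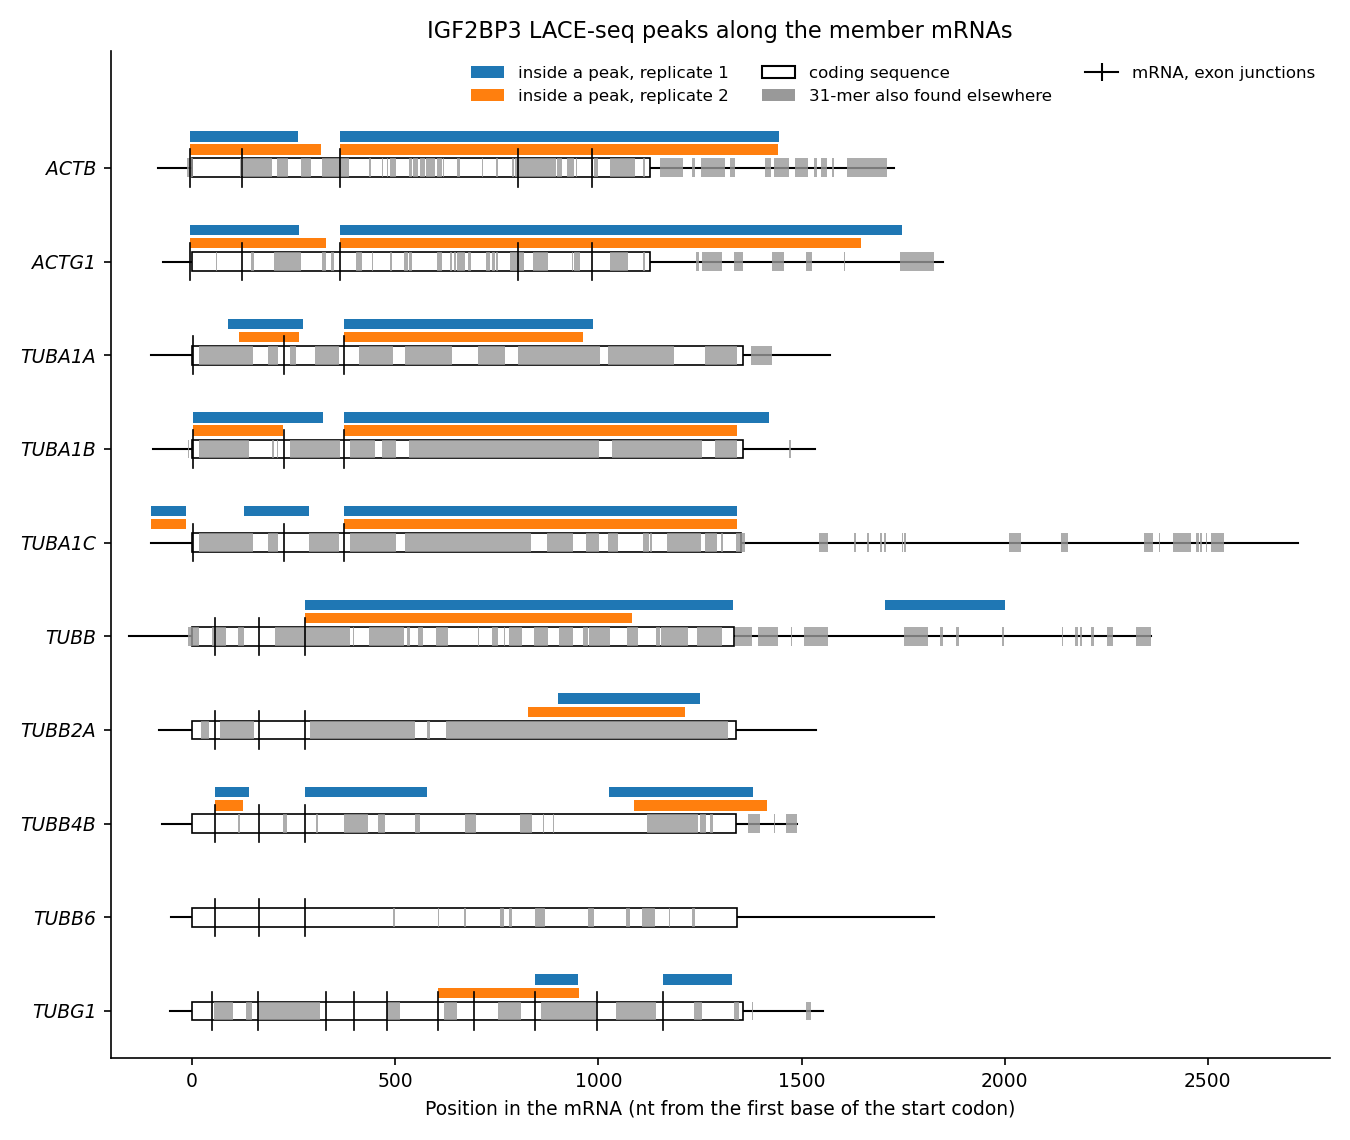
Bases inside peaks along the 10 mRNAs, in nt from the first base of the start codon, for replicate 1 (blue) and replicate 2 (orange), with the coding sequence as a box, exon junctions as ticks and bases whose 31-mer is also found outside the gene in grey. The actins and TUBA1B are covered over most of their length, TUBB2A only within grey sequence, and TUBB6 nowhere.

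**Figure D3:**
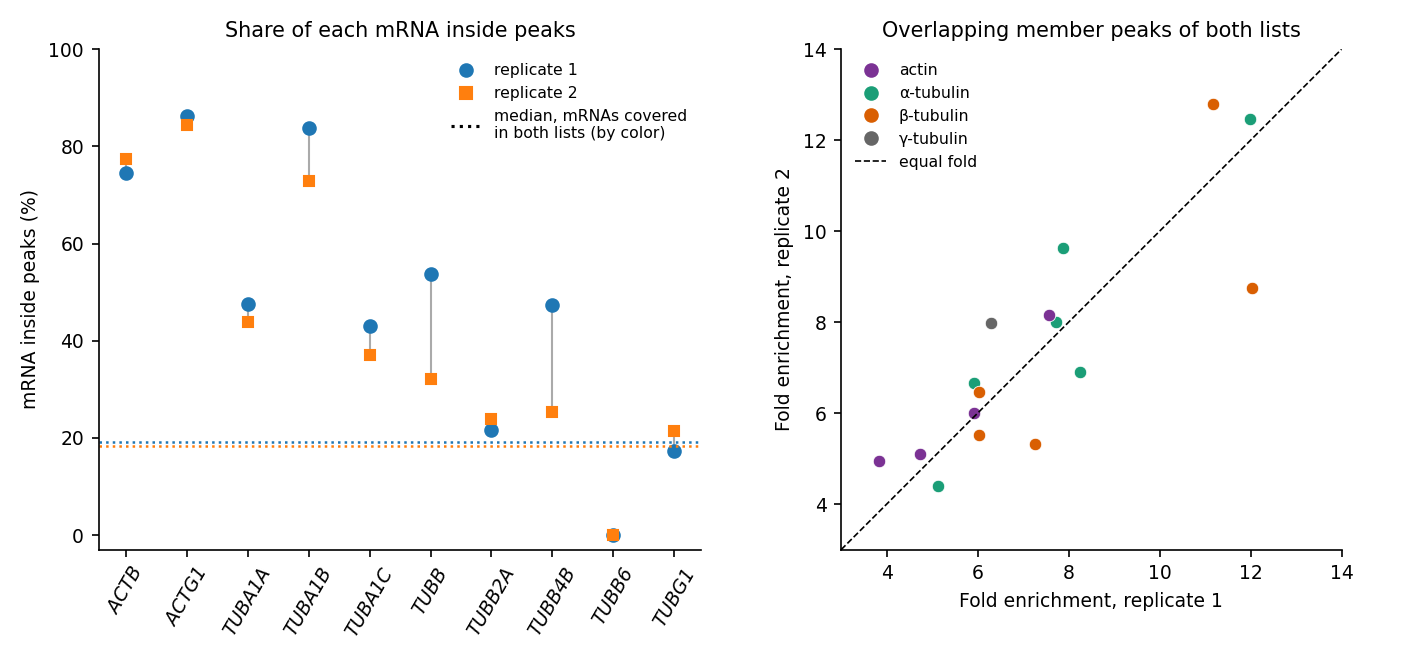
Left, the share of each mRNA inside peaks (percent) in replicate 1 (circles) and replicate 2 (squares), with the medians of the mRNAs covered in both lists as dotted lines; right, the fold enrichment of the 16 overlapping member peaks in replicate 1 against replicate 2, with the line of equal fold. ACTG1, ACTB and TUBA1B stand at 73.0% or more in both replicates, and TUBB and TUBB4B differ most between them.

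Ordered by the share of the mRNA inside peaks, ACTG1 came first and TUBB6 last in both lists. The next after ACTG1 were TUBA1B and ACTB in replicate 1, in that order, and ACTB and TUBA1B in replicate 2, so these neighbours exchanged places. TUBA1A, TUBB, TUBB4B and TUBA1C lay between 43.0% and 53.6% in replicate 1 and between 25.4% and 43.96% in replicate 2, and their order differed between the lists. Peaks of at least 1000 bp made up 5 of the 21 member peaks and 4 of the 17, against 3.36% and 2.97% of all peaks.

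Summits fell mostly in coding sequence. In replicate 1, 13 of the 21 summits (61.9%) were in the CDS, and in replicate 2, 11 of the 17 (64.7%), against 33.6% and 34.6% of the summits in protein-coding genes. Of the peaks on a member mRNA, 68.4% and 73.3% had their summit in the CDS. These classes use the CDS of any annotated transcript of the gene. The summit of the weaker TUBA1A peak of replicate 2 was counted so, but lay in an intron of the MANE transcript. The CDS made up 13026 of the 19034 nt of these 10 mRNAs, a share by length close to the summit shares of 68.4% and 73.3%. No test against length was run. There were 2 and 1 summits in a 3′ UTR, of which 1 in each list was the TUBB6 summit shared with AFG3L2, and none in a 5′ UTR. Peaks covered the stop codon in ACTB, ACTG1 and TUBB4B in both lists and in TUBA1B in replicate 1, and the start codon in ACTB and ACTG1 in both. For the stop codon this was 19.05% and 17.6% of the member peaks, against 14.004% and 12.86% of peaks in protein-coding genes. For the start codon it was 9.52% and 11.8%, against 8.98% and 13.9%. Of the peaks on a member mRNA, 10 summits over both lists lay outside the exons of the MANE transcript. They were 4 to 154 nt from the nearest exon, on its upstream side in 9 of the 10, and each of those peaks reached the exon. They belonged to ACTB, ACTG1, TUBA1A, TUBA1B, TUBA1C and TUBB4B. Among them were the smaller ACTG1 and TUBA1B peaks in both lists and the smaller ACTB peak in replicate 1. The folds and reads of these peaks are values of points outside the mRNA. The deposited peaks have no strand. At TUBA1B and TUBA1A they overlapped the lncRNA TUBA1B-AS1, and at TUBA1C and TUBB an unnamed lncRNA, each on the opposite strand, so the RNA of origin cannot be told apart there. The peak over the stop codon of TUBB4B also reached the gene FAM166A in both lists, with its summit outside that gene.

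GGAC, the core of the m6A consensus, stood within 50 nt of the summit, read on the gene strand of the genome, at 9 of 21 member peaks in replicate 1 and 6 of 17 in replicate 2 (42.9% and 35.3%), against 28.8% and 31.9% of all summits in protein-coding genes. TGGAC, which contains GGAC, was found at 5 and 3 peaks (23.8% and 17.6%) against 10.0% and 10.2%. CACA was found at 7 peaks in each list (33.3% and 41.2%) against 37.2% and 34.2%. AAAAA was found at 0 and 1 peaks against 11.6% and 8.60%. With so few peaks, these shares are descriptions.

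The local background of the peaks could be read as a number of reads. In 96.5% of the peaks of replicate 1 and 97.3% of those of replicate 2 it equalled, within 0.02 reads, a whole number of reads in a window of 10000 bp, each counted over a length of 293 bp in replicate 1 and 294 bp in replicate 2. The window around a member peak held a median of 362 and 253 reads, against 74 and 63 for all peaks. The window is longer than any member peak, so the reads of a peak and of its neighbours counted in its own background. The ACTG1 windows held 1038 reads in replicate 1 and from 964 to 966 in replicate 2. Those of the larger ACTB peak held 754 and 691 reads, those of the larger TUBA1B peak 1081 and 655, and those of TUBB2A 34 and 36. The reads at the summit made up a median of 19.6% and 24.3% of the window at member peaks and of 31.6% and 35.4% at all peaks. They made up 23.1% and 25.04% at the larger ACTB peak, and 67.6% and 47.2% at TUBB2A, the highest share of the members in both lists.

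The actins and the α-tubulins differed in how their reads compared between the replicates. At the 4 actin pairs the reads at the summit in replicate 2 were 0.946 to 1.195 times those in replicate 1. At all 6 α-tubulin pairs they were lower, at 0.490 to 0.705 times, and at the 4 pairs of TUBB, TUBB2A and TUBB4B at 0.507 to 0.860 times. The reads in the 10000-bp window gave the same picture for the actins, at 0.916 to 0.931 times, and for the α-tubulins, at 0.471 to 0.651 times. At the same β-tubulin pairs it ran from 0.519 to 1.06 times, and TUBB2A, with 34 and 36 reads, was lower in replicate 2 at the summit and not in the window. Over 11749 pairs of peaks that overlapped one to one, the median ratio of the summit reads was 1.00, and the middle 50% ran from 0.722 to 1.33. The α-tubulin summit ratios thus lay below that range in every pair, and within the middle 90%, from 0.450 to 2.15. For the window reads the median ratio over 11414 such pairs was 0.911, and the middle 50% ran from 0.669 to 1.21. Neither the 6 α-tubulin pairs nor the 4 actin pairs are independent. The α-tubulin pairs come from TUBA1A, TUBA1B and TUBA1C, which share much of their sequence. The windows of the peaks of TUBA1A, and of those of TUBA1B, nearly coincide. The actin pairs come from ACTB and ACTG1 alone, and the windows within each of these genes nearly coincide as well. Fold enrichment did not follow, since it was higher in replicate 2 at 4 of the 6 α-tubulin pairs. With 2 libraries of 1 group, no test of this difference was possible.

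Much of the sequence of these genes exists elsewhere. The single-copy share of the mRNA ran from 32.5% in TUBA1B to 93.3% in TUBB6, with a median of 58.7%. It was lower in the coding sequences, at a median of 49.5%, than in the 5′ UTRs, at 100%. The 31-mer at the summit occurred more than once at 5 of 21 and 6 of 17 member peaks (23.8% and 35.3%), against 5.83% and 5.27% of all peaks in protein-coding genes. Outside the 10 genes, 52 loci held at least 50 of their 31-mers, and 15 of these had a peak in both lists, 17 in replicate 1 and 21 in replicate 2. Of the 52 loci, 37 were annotated first as a pseudogene, and 11 of these 37 had a peak in both lists. The shares over all genes were 6.93% for processed pseudogenes and 34.7% for protein-coding genes. These are unlike sets, since the 37 loci were found by sequence and not by gene span, and include unprocessed and transcribed pseudogenes.

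Of 84 pseudogenes named after actins or tubulins, 18 had a peak in both lists. Of the 61 among them annotated as processed pseudogenes it was 16 (26.2%), against 6.93% of all 10146 genes of that annotation. The 18 fell to 10 with only peaks of a −log10 q of at least 10, and also to 10 with only peaks whose summit 31-mer occurs once. The 18 were 5 of 12 pseudogenes of ACTB, 3 of 21 of ACTG1, 8 of 15 of α-tubulin and 2 of 35 of β-tubulin, while the 1 pseudogene of TUBG1 had none. The largest folds were those of ACTBP11, at 17.8 with 56 reads in replicate 1 and 14.3 with 49 reads in replicate 2, and of TUBAP9, at 17.4 with 45 reads and 13.0 with 22 reads. They were followed in replicate 1 by TUBAP2 and TUBBP2, both at 12.9 with 74 reads, and in replicate 2 by TUBAP14 at 11.5 with 20 reads. The pseudogene peaks numbered 26 and 29, with median folds of 9.06 and 6.80. Their median reads were 22.5 and 13, lower than at the members, and the median window of 10000 bp held 56 and 29 reads. The largest fold on a member mRNA was 12.02 in replicate 1, at TUBB2A, and 12.46 in replicate 2, at TUBA1A, and ACTBP11 and TUBAP9 were above it in both.

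The pseudogene peaks could be placed on a member mRNA by their sequence in 24 of 26 cases and 28 of 29, at a median identity of 91.0% and 90.5%. The summits of ACTBP11 corresponded to ACTB positions -15 and -17, in nt from the first base of the start codon, and those of 1 ACTBP7 peak in each list to positions -11 and -22. These points are 5 to 16 nt from the junction of exons 1 and 2, in a part of the ACTB mRNA that had no peak in ACTB itself. Over all placed pseudogene summits, 7 of 24 (29.2%) and 11 of 28 (39.3%) lay within 50 nt of an exon junction of the member mRNA, against 20.9% and 22.8% of the bases of those mRNAs. The 31-mer at the summit occurred once in the genome at 17 and 19 of the pseudogene peaks. Of the pseudogenes named here, TUBAP9 overlaps CYP4Z1, TUBAP14 overlaps NIM1K, ACTBP7 overlaps FRMD5 and TUBAP2 overlaps DISC1FP1. ACTBP11 and TUBBP2 overlap no other gene. Whether reads of the pseudogene, of the parent mRNA or of an overlapping gene made these peaks was not tested.

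**Figure D4:**
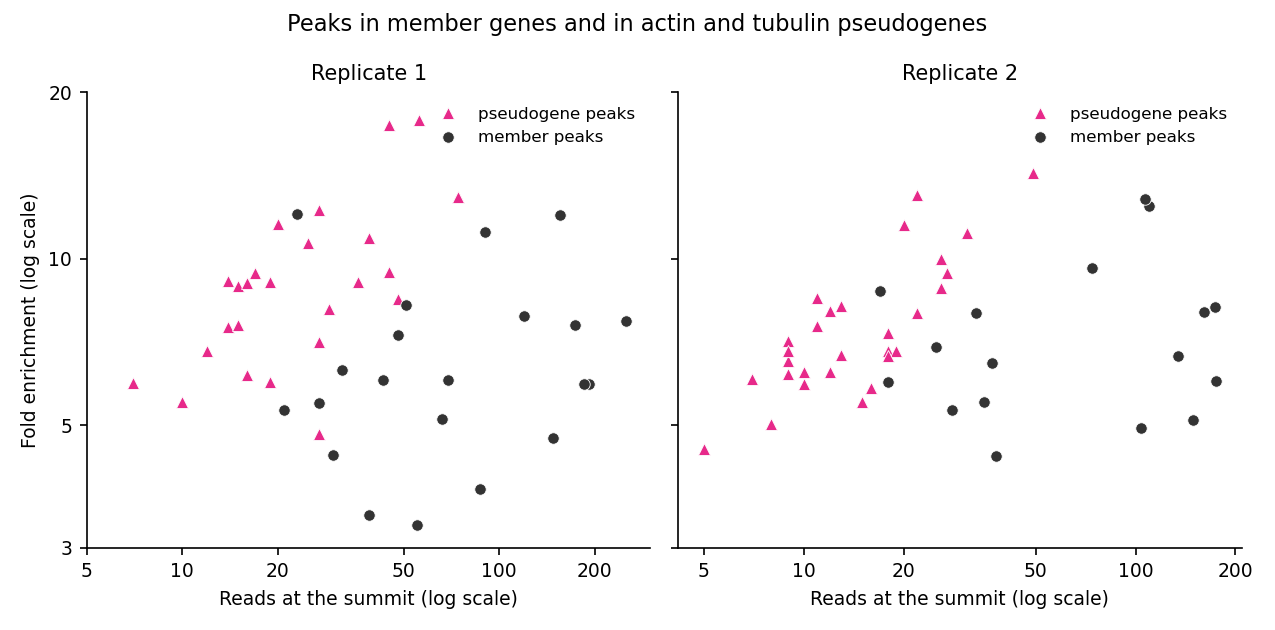
Reads at the summit against fold enrichment (log axes) of the member peaks (circles) and of the peaks in named actin and tubulin pseudogenes (triangles), replicate 1 on the left and replicate 2 on the right. The pseudogene peaks have fewer reads, with medians of 22.5 and 13 against 66 and 74, and reach the largest folds of the plot, 17.8 and 14.3.

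Other genes of the same systems were read from lists of 56 genes, of which 30 had a peak in both lists (53.6%), against the 34.7% of all protein-coding genes, which also applies to each list below. Of the other actin isoforms, which serve muscle, 1 of 4 had one, ACTA1, with folds of 7.82 and 10.1. Of the other tubulins it was 4 of 13, led by TUBB4A with 19.8 and 18.5 and TUBB3 with 8.79 and 7.21, both neural β-tubulins that share at least 50 31-mers with the members. The γ-tubulin ring complex, which starts microtubules, had 5 of 9, with TUBGCP3 at 10.8 and 8.79 and MZT2A at 7.95 and 7.89. Tubulin folding and autoregulation had 3 of 7, with the cofactor TBCC at 8.24 and 10.3 and TTC5, which recognises nascent tubulin, at 6.23 and 6.91. Among binders of actin monomers it was 6 of 9, with the thymosin TMSB10 at 13.3 and 15.7 and the actin-severing DSTN at 10.7 and 10.1. The Arp2/3 complex, which branches actin filaments, had 7 of 9, with ARPC5 at 17.0 and 16.4 and ARPC1A at 15.1 and 10.1. Microtubule binders had 4 of 5, with the polymerase CKAP5 at 10.7 and 13.2 and MAP4 at 9.78 and 9.83. The folds of these leading genes were chosen by size within their lists and are a description.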

How the data were processed

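IGF2BP3 LACE-seq was described from 2 peak lists of OE-19 cells, 1 per replicate. The authors' methods name Bowtie with settings that keep reads matching several places, and Piranha, whereas their processing notes per the labels name fastp, HISAT2, MACS2 and hg38. The deposited columns hold a fold enrichment (a ratio), p- and q-values as −log10, a score that was not used, and other columns with positions, without strand. Depth is unknown. Reads at the summit were recovered from the fold and p-value under a Poisson distribution, within 0.001 in −log10 p for all peaks.

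Overlap was counted from 1 bp, with Python 3.11.15, pysam 0.24.0 and GENCODE 44. Single-copy bases were those whose centred 31-mer had no copy outside the gene in the primary hg38 sequences. Motifs were read in windows of 101 nt. The scripts were tested on simulated data. The 10 genes and all lists were chosen with earlier results of these data known. Named genes were all 10 members, at most 2 leading genes per list, the 3 pseudogenes of largest fold per replicate, and genes under a member summit. ACTBP7 and TUBB2B, the junction distances, the background windows and the replicate ratios were chosen after values were seen. No test was run, since 1 group of 2 libraries allows none. The aligned α-tubulin stretch is not reported here.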

Additional observations from a re-analysis of the deposited data

How the results depend on the processing

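No paired analysis was possible because the series has 1 group. The 10 results were recomputed with 1 choice changed at a time, and 16 of 24 values other than those leaving out a replicate moved by less than the SD of the replicates, or by less than 1.5 times for counts. With both lists cut to peaks whose summit 31-mer occurs once, overlapping partner peaks were removed too. The share of member peaks that overlap the other replicate was then 61.4% in place of 85.2% (mean of both lists). The member genes with a peak in both lists were 8 in place of 10, without TUBB2A and TUBG1. The 8 still included TUBB6, which had no peak on its MANE mRNA. The pseudogenes with a peak in both lists were 10 in place of 18. With peaks of a −log10 q of at least 10 alone, these pseudogenes were also 10, and 67.7% of member summits were in the CDS in place of 63.3%. Taking the middle of the peak gave 65.7%. With all exons of each gene in place of 1 transcript, the median covered share was 26.4% in place of 41.0%. The single-copy share of the covered bases was 28.7% with 21-mers and 64.3% with 51-mers, against 45.5%. With peaks overlapping an exon of the chosen transcript, an alternative added after the data were seen like those on pseudogenes and other lists, 9 genes had a peak in both lists.

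Without either replicate, the values ran from 17 to 21 for member peaks, 10 to 10 for member genes, 76.2% to 94.1% for overlap, 6.03 to 6.66 for median fold, 34.6% to 47.4% for covered mRNA, 43.8% to 47.2% for single-copy bases, 61.9% to 64.7% for CDS summits, 35.3% to 42.9% for GGAC, 36 to 39 for genes of the other lists and 22 to 23 for pseudogenes. A peak missing from 1 list may have been below detection at its depth.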
